A study of Homo sapiens with 2 samples.

Results

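A set of 10 genes of the NF-kB pathway was read by symbol from the gene list of a single-cell RNA dataset of prostate epithelial cells. NFKBIA, TNFAIP3, TNFAIP2, BIRC3, ICAM1, SOD2, RELA, RELB, NFKB1 and NFKB2 were the listed genes, each was found once, and they are 10 of 36601 genes. The study asked what the ETS factor ERG, together with active AKT, does to the cell populations of a prostate epithelial line. RWPE-ERG-mAKT cells are RWPE1 cells that received retroviral ERG, driven by the HNRNPA2B1 promoter, and myristoylated Flag-tagged AKT1, a form held at the membrane and so constantly active, under hygromycin and puromycin selection. RWPE1, an immortalized line from normal human prostate epithelium, was the other sample, and both were grown in keratinocyte serum-free medium. Its genotype label is vector only, while the text of the study calls these cells parental, so these sources do not settle whether vector and selection were matched between the samples. Each condition was 1 library loaded with 10000 cells by the 10x Genomics Chromium 3' method, so there was no replicate, no test could be made, and condition and library cannot be told apart.

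NF-kB is a family of dimeric transcription factors that inhibitors of the IkB class hold in the cytoplasm until a signal from a cytokine or pattern receptor has the inhibitor degraded. RELA with the p50 product of NFKB1 serves the fast, canonical arm, and RELB with the p52 product of NFKB2 serves the slower, non-canonical arm. Among the genes these dimers switch on are their own inhibitors, NFKBIA and TNFAIP3, and genes that protect cells, recruit leukocytes or scavenge oxygen radicals.

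Unless stated otherwise, values come from cells with over 2500 detected genes and under 7.5% of their UMIs (counted molecules) from mitochondrial genes. This left 14140 of 17355 RWPE-ERG-mAKT barcodes with 225121037 UMIs, and 9967 of 12504 RWPE1 barcodes with 192789925 UMIs. RWPE-ERG-mAKT cells were shallower, with a median of 13601 UMIs against 16972 in RWPE1, and had less mitochondrial RNA, with a median of 2.73% against 5.44%. ERG itself was at 20.8 CPM (UMIs of the gene per 1000000 UMIs of the kept cells) in RWPE-ERG-mAKT (4680 UMIs) and 1.44 CPM in RWPE1 (278 UMIs). All 7 epithelial markers were present in both libraries at 1 CPM or more, while no endothelial or microglial marker reached that level in either. Of 6 immune markers 1 reached it in each, CD68 at 13.4 CPM in RWPE-ERG-mAKT and 8.73 CPM in RWPE1, and of 6 choroid plexus markers none did in RWPE-ERG-mAKT and FOLR1 did in RWPE1, at 1.10 CPM. Barcodes with at least 2 UMIs of brain-type genes numbered 0 in RWPE-ERG-mAKT and 5 in RWPE1. Of 6 fibroblast markers, 2 reached it in RWPE-ERG-mAKT, with DCN at 23.1 CPM in RWPE-ERG-mAKT against 0.228 CPM in RWPE1, and 1 reached it in RWPE1, and their part in the results below was not tested. The libraries shared 55 barcodes. No cell type here is known to lack the 10 genes, so their background from free RNA could not be measured.

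The promoters that hold an NF-kB consensus are shown, so that the upstream sequence of these targets can be read beside their levels. RefSeq (GRCh38.p14) gave 9 of the 10 promoters, each from 250 bases before to 50 bases from the annotated start, and RELB was not among them. The NF-kB consensus of 10 letters was searched by name on both strands, and 4 of the 9 held it. It was also held by 3956 of 35116 human promoters of the same length (11.3%). Capitals mark the matches, and each sequence runs 5' to 3' on the strand of its gene.
NFKBIA: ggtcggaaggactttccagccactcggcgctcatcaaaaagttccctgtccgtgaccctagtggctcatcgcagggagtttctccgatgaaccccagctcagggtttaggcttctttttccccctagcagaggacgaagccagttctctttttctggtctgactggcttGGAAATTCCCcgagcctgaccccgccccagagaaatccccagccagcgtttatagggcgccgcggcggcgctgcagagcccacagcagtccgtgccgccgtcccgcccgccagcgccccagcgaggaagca
TNFAIP3: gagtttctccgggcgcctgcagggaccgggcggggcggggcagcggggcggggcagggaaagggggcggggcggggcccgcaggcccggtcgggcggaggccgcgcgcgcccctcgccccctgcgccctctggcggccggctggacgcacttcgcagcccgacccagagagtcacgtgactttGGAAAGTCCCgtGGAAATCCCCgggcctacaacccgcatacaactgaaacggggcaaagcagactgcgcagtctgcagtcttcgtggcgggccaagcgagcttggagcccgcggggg
BIRC3: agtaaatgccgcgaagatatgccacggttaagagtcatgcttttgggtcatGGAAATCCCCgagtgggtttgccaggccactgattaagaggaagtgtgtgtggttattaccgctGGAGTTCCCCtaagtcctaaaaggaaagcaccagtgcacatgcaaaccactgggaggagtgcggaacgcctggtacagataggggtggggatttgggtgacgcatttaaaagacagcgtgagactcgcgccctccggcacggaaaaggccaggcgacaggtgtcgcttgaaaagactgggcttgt
NFKB1: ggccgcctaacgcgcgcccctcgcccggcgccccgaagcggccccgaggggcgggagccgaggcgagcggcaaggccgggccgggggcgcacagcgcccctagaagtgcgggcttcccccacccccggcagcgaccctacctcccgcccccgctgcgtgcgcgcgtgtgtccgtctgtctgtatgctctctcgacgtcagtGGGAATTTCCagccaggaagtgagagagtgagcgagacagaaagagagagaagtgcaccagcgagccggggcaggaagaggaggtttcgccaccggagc
These windows lie at chr14:35404700-35404999 on the minus strand for NFKBIA, and on the plus strand at chr6:137867009-137867308 for TNFAIP3, chr11:102317234-102317533 for BIRC3 and chr4:102501109-102501408 for NFKB1. With the start base as 0, the match in NFKBIA ran from -81 to -72, and that in NFKB1 from -49 to -40. TNFAIP3 held 2 close together, from -67 to -58 and from -55 to -46. BIRC3 held 2 farther out, from -199 to -190 and from -135 to -126. No match was in the windows of TNFAIP2, ICAM1, SOD2, RELA and NFKB2, which says only that those letters are not in these 300 bases. The windows of ICAM1 (chr19:10270870-10271169), SOD2 (chr6:159727335-159727634) and RELA (chr11:65663808-65664107) do not hold the GENCODE gene start given below. Other starts of these genes were not searched. A match is a string of letters, and no binding was measured.

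Of the 10 genes, 6 were over 1.5-fold higher in RWPE-ERG-mAKT than in RWPE1 and 0 were over 1.5-fold lower. Over all 14324 genes with at least 1 CPM on average, 19.3% were over 1.5-fold higher and 29.3% over 1.5-fold lower. At 2-fold, 5 of the 10 were higher, against 9.55% of all genes, and 0 lower, against 16.1%. The median log2 ratio of the 10 was 1.03, and that of all genes was -0.13. The order by ratio was TNFAIP3, BIRC3, SOD2, NFKBIA, RELB and RELA, followed by NFKB2, ICAM1, NFKB1 and TNFAIP2. Intervals are 95% intervals of Poisson counts, and cover counting error only.

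**Figure D1:**
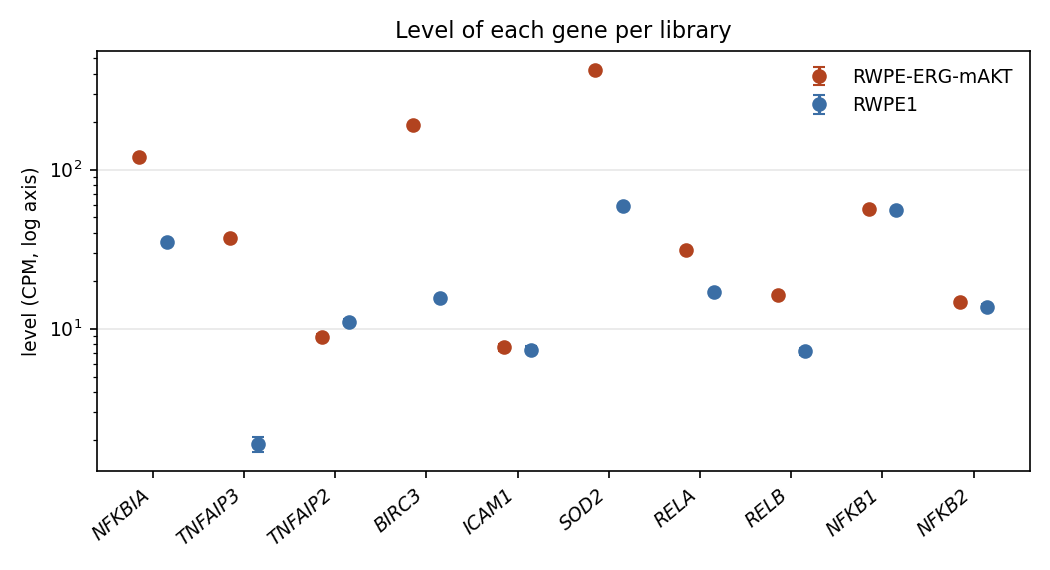
Level of the 10 genes in RWPE-ERG-mAKT and RWPE1 in CPM on a log axis, 1 library each, with 95% Poisson intervals that cover counting error only. SOD2, BIRC3, NFKBIA and TNFAIP3 lie far apart between the libraries, while NFKB1, NFKB2 and ICAM1 lie close together.

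The inhibitors of the pathway were both higher. NFKBIA encodes IkB-alpha, which binds NF-kB dimers and keeps them out of the nucleus (ENSG00000100906, chr14:35401511-35404749, GENCODE 29 on GRCh38, as for all genes below). It was at 121 CPM (119 to 122) in RWPE-ERG-mAKT and 35.1 CPM (34.3 to 36.0) in RWPE1, a 3.43-fold difference (log2 1.78, 1.74 to 1.82). TNFAIP3 encodes A20, a ubiquitin-editing enzyme that shuts off signals upstream of the IkB kinase (ENSG00000118503, chr6:137867188-137883312). Its level was 37.1 CPM (36.3 to 37.9) in RWPE-ERG-mAKT and 1.87 CPM (1.68 to 2.08) in RWPE1, or 8355 UMIs in RWPE-ERG-mAKT against 361 in RWPE1. At 19.8-fold (log2 4.31, 4.16 to 4.46) it had the largest ratio of the 10 and stood 60th from the top among 14324 genes. TNFAIP3 was thus nearly unread in RWPE1, whereas NFKBIA was well measured in both.

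The survival genes followed with high levels. BIRC3 encodes cIAP2, a ubiquitin ligase that restrains caspases and modifies RIPK1 downstream of TNF receptors (ENSG00000023445, chr11:102317450-102339403). It was at 189 CPM (188 to 191) in RWPE-ERG-mAKT and 15.5 CPM (14.9 to 16.0) in RWPE1, 12.2-fold apart (log2 3.61, 3.56 to 3.67). SOD2 encodes the superoxide dismutase of the mitochondrial matrix, which protects cells from oxygen radicals (ENSG00000112096, chr6:159669057-159745186). It was the most abundant of the 10 in both libraries by UMIs, at 421 CPM (418 to 424) in RWPE-ERG-mAKT and 58.7 CPM (57.7 to 59.8) in RWPE1. The SOD2 ratio was 7.17-fold (log2 2.84, 2.81 to 2.87), and SOD2 overlaps WTAP on the opposite strand. BIRC3 and SOD2 stood 103rd and 179th from the top of all genes, and NFKBIA 440th.

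The other targets did not share this difference. ICAM1, an adhesion receptor for leukocyte integrins (ENSG00000090339, chr19:10270835-10286615), was at 7.63 CPM (7.27 to 8.0) in RWPE-ERG-mAKT and 7.40 CPM (7.02 to 7.79) in RWPE1, with a log2 ratio of 0.05 (-0.06 to 0.15). TNFAIP2, a TNF-inducible gene (ENSG00000185215, chr14:103123442-103137439), was at 8.85 CPM (8.46 to 9.25) in RWPE-ERG-mAKT and 11.1 CPM (10.6 to 11.5) in RWPE1. Its log2 ratio of -0.32 (-0.41 to -0.23) made it the lowest of the 10 without reaching 1.5-fold. So genes named for the same inducer, TNFAIP2 and TNFAIP3, lay at opposite ends of the set.

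Among the subunits, RELB and RELA were higher and both precursor genes were near equal. RELB (ENSG00000104856, chr19:45001430-45038198) was at 16.2 CPM (15.7 to 16.8) in RWPE-ERG-mAKT and 7.2 CPM (6.83 to 7.59) in RWPE1, a 2.26-fold difference (log2 1.17, 1.08 to 1.26). RELA, which encodes the p65 transactivating subunit (ENSG00000173039, chr11:65653596-65663094), was at 31.2 CPM (30.5 to 31.9) in RWPE-ERG-mAKT and 16.9 CPM (16.3 to 17.5) in RWPE1, or 1.85-fold (log2 0.89, 0.83 to 0.95). RELA and RELB encode the partners with a transactivation domain, but both fell under 1.5-fold in some ranges of cells given below. REL, a further subunit gene, was at 31.1 CPM in RWPE-ERG-mAKT and 21.6 CPM in RWPE1 (log2 0.52), under 1.5-fold. NFKB1, the precursor of p50 (ENSG00000109320, chr4:102501329-102617302), was at 56.3 CPM (55.4 to 57.3) in RWPE-ERG-mAKT and 55.8 CPM (54.7 to 56.8) in RWPE1, a log2 ratio of 0.02 (-0.02 to 0.05). NFKB2, the precursor of p52 (ENSG00000077150, chr10:102394110-102402529), was at 14.7 CPM (14.2 to 15.2) in RWPE-ERG-mAKT and 13.7 CPM (13.2 to 14.3) in RWPE1, a log2 ratio of 0.09 (0.02 to 0.17). Transcript levels say nothing of where the proteins were in the cell.

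**Figure D2:**
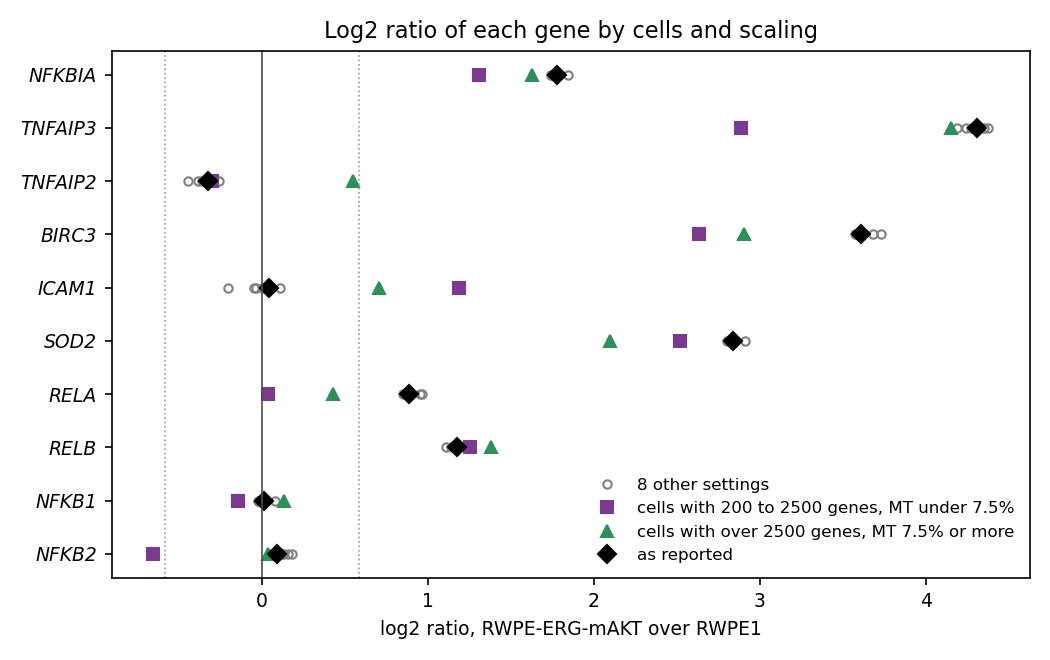
Log2 ratio of the 10 genes, RWPE-ERG-mAKT against RWPE1 as denominator, with points for the main cells and for the other choices of cells and scaling. TNFAIP3, BIRC3, SOD2, NFKBIA and RELB stay above 1.5-fold in every setting drawn, while RELA falls to 0.04 and ICAM1 reaches 1.19 in cells with 200 to 2500 genes.

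By point value, the 5 genes with the largest ratios were over 1.5-fold higher in RWPE-ERG-mAKT under each of 10 other choices of cells and scaling. The log2 ratio ran from 2.89 to 4.38 for TNFAIP3, from 2.63 to 3.73 for BIRC3, from 2.10 to 2.91 for SOD2, from 1.31 to 1.85 for NFKBIA and from 1.11 to 1.38 for RELB. RELA was less steady. Cells with 200 to 2500 genes, the range named in the methods of the source, were 2775 in RWPE-ERG-mAKT and 362 in RWPE1. Its log2 ratio in them was 0.04 (-0.57 to 0.72), and it was 0.43 (-0.27 to 1.05) in the cells of high mitochondrial share (7.5% or more). Those cells were 107 in RWPE-ERG-mAKT and 1575 in RWPE1. ICAM1 was over 1.5-fold higher in both of those settings, at 1.19 (-0.73 to 4.27, from 55 UMIs in RWPE-ERG-mAKT and 2 in RWPE1) and 0.70 (-0.16 to 1.46, from 15 and 183 UMIs). Both intervals reached 0. NFKB2 was at -0.65 (-1.37 to 0.14) in the cells with 200 to 2500 genes. In the same cells TNFAIP3 was at 2.89 (1.33 to 5.18), resting on 3 RWPE1 UMIs. RELB was at 1.26 (0.001 to 2.90) there, resting on 5 RWPE1 UMIs, so 1.5-fold is not settled for it. TNFAIP2 was at 0.55 (-0.26 to 1.26, from 17 UMIs in RWPE-ERG-mAKT and 231 in RWPE1) in the cells of high mitochondrial share. That interval reached 0, so its sign there is not settled.

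Since depth and mitochondrial share differed between the libraries, the ratios were also read within matched ranges. In the 6817 RWPE-ERG-mAKT and 5996 RWPE1 cells with 10000 to 20000 UMIs, the log2 ratio was 4.24 for TNFAIP3, 3.73 for BIRC3, 2.84 for SOD2 and 1.76 for NFKBIA. In cells with 5000 to 10000 UMIs, TNFAIP3 was at 3.26, RELA at 0.48 and RELB at 0.40. RELA and RELB were therefore under 1.5-fold in the shallowest cells, of which RWPE1 had 579. They were also under it in the cells with the least mitochondrial RNA, at 0.50 and 0.58. By mitochondrial share, SOD2 was at 3.25, 2.64 and 2.32 in cells with 0 to 2.5%, 2.5 to 5% and 5 to 7.5%. TNFAIP3 ran the other way, at 2.76, 3.76 and 4.36, and NFKBIA was at 1.11, 1.62 and 1.74. TNFAIP2 changed sign along the same ranges, at -0.83, -0.32 and 0.58. The lowest range held 195 RWPE1 cells and the highest 526 RWPE-ERG-mAKT cells. In every range of both kinds TNFAIP3, BIRC3, SOD2 and NFKBIA were over 1.5-fold higher in RWPE-ERG-mAKT.

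Shares of positive cells were compared after each cell was thinned at random to 5000 UMIs, which left out 6 RWPE-ERG-mAKT cells. SOD2 was detected in 68.0% of RWPE-ERG-mAKT cells (exact binomial 95% interval 67.2 to 68.8) and 24.5% of RWPE1 cells (23.6 to 25.3). BIRC3 was detected in 42.9% (42.1 to 43.8) of RWPE-ERG-mAKT cells and 5.78% (5.33 to 6.26) of RWPE1 cells. NFKBIA was detected in 37.7% (36.9 to 38.5) of RWPE-ERG-mAKT cells and 14.8% (14.1 to 15.6) of RWPE1 cells. This was 1 random draw, and averaged over all possible draws, a check added after the data were seen, SOD2 was at 67.0% in RWPE-ERG-mAKT and 24.6% in RWPE1. These 3 genes were thus read in a large minority or a majority of RWPE-ERG-mAKT cells. TNFAIP3 was found in 10.0% (9.56 to 10.6) of RWPE-ERG-mAKT cells and 0.893% (0.718 to 1.10) of RWPE1 cells, so its high ratio rested on a minority of the cells at this depth. Without thinning, RWPE-ERG-mAKT had 88.6% for SOD2, 67.5% for BIRC3, 67.6% for NFKBIA and 21.5% for TNFAIP3, and RWPE1 had 61.7% for SOD2, 18.0% for BIRC3, 40.4% for NFKBIA and 2.57% for TNFAIP3.

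The shares of the subunits differed less between the libraries. In RWPE-ERG-mAKT they were detected in fewer cells than SOD2, BIRC3 and NFKBIA, but NFKB1 and RELA in more than TNFAIP3. RELA was found in 13.8% of RWPE-ERG-mAKT cells and 7.67% of RWPE1 cells, and RELB in 7.21% of RWPE-ERG-mAKT cells and 3.75% of RWPE1 cells. NFKB1 was found in 22.9% (22.2 to 23.6) of RWPE-ERG-mAKT cells and 23.9% (23.0 to 24.7) of RWPE1 cells, and NFKB2 in 6.79% (6.38 to 7.22) of RWPE-ERG-mAKT cells and 6.20% (5.73 to 6.69) of RWPE1 cells. The precursor genes were thus found in similar shares of both lines. Unthinned, RWPE-ERG-mAKT had 36.0% for RELA, 19.9% for RELB, 50.5% for NFKB1 and 18.2% for NFKB2, and RWPE1 had 26.6% for RELA, 11.6% for RELB, 60.4% for NFKB1 and 21.3% for NFKB2. ICAM1 was found in 3.46% (3.16 to 3.77) of RWPE-ERG-mAKT cells and 3.57% (3.22 to 3.95) of RWPE1 cells, and TNFAIP2 in 2.64% (2.38 to 2.92) of RWPE-ERG-mAKT cells and 4.95% (4.53 to 5.39) of RWPE1 cells. Unthinned, RWPE-ERG-mAKT had 9.15% for ICAM1 and 6.68% for TNFAIP2, and RWPE1 had 12% for ICAM1 and 16.1% for TNFAIP2. In all, 7 of the 10 had the higher share in RWPE-ERG-mAKT at equal depth, against 44.1% of the 14324 genes, and for NFKB1, NFKB2 and ICAM1 the intervals of both libraries met.

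**Figure D3:**
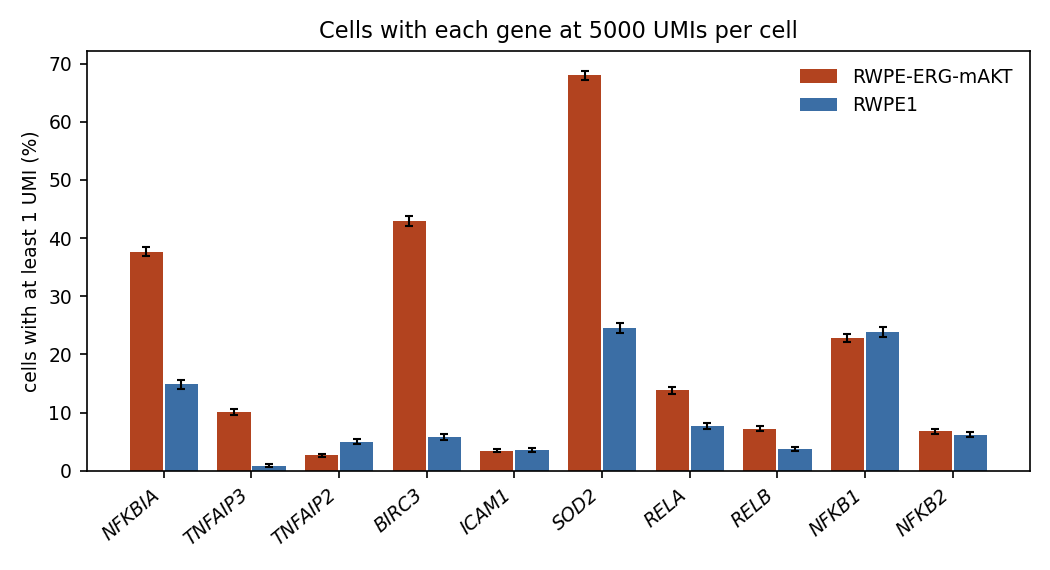
Percent of cells with at least 1 UMI of each gene after thinning to 5000 UMIs per cell, for RWPE-ERG-mAKT (14134 cells) and RWPE1 (9967 cells), with exact binomial 95% intervals. SOD2 reaches 68.0% against 24.5% and BIRC3 42.9% against 5.78%, while NFKB1 is at 22.9% against 23.9%.

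The high genes were also the uneven ones. The variance over the mean of thinned UMIs, which is 1 for pure counting and grows with the mean at a given relative spread, was 6.10 for SOD2 in RWPE-ERG-mAKT and 1.27 in RWPE1. In RWPE-ERG-mAKT it was 3.23 for TNFAIP3, 2.93 for BIRC3 and 1.86 for NFKBIA, and in RWPE1 1.34 for TNFAIP3, 1.74 for BIRC3 and 1.23 for NFKBIA. TNFAIP2 was uneven in RWPE-ERG-mAKT too, at 2.43 against 1.15 in RWPE1, although its mean was lower in RWPE-ERG-mAKT. RELA was at 1.03 in RWPE-ERG-mAKT and 1.01 in RWPE1. The highest RWPE-ERG-mAKT cell held 87 thinned UMIs of SOD2 and the highest RWPE1 cell 19, and for BIRC3 the RWPE-ERG-mAKT cell held 34 and the RWPE1 cell 17.

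The 4 feedback and survival genes NFKBIA, TNFAIP3, BIRC3 and SOD2 were then read together in the same cells. All 4 were detected in 483 of 14134 RWPE-ERG-mAKT cells, 3.42% (3.12 to 3.73), and in 7 of 9967 RWPE1 cells, 0.0702% (0.0282 to 0.145). The product of the 4 shares was 1.11% in RWPE-ERG-mAKT and 0.00188% in RWPE1. None of the 4 was detected in 13.5% of RWPE-ERG-mAKT cells and 61.0% of RWPE1 cells. Cells with all 4 were therefore more frequent than the product of the shares in both libraries, though the RWPE1 value rests on 7 cells.

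Over all 45 pairs of the 10 genes, the median Pearson correlation across cells was 0.0734 in RWPE-ERG-mAKT and 0.0161 in RWPE1, on log values of the thinned UMIs of 14134 and 9967 cells. Cells of a library share their preparation, and a correlation of sparse counts is held down where levels are low, as more of them were in RWPE1. The values are therefore a description. The highest pair in both libraries was NFKBIA with TNFAIP3, at 0.266 in RWPE-ERG-mAKT and 0.107 in RWPE1. In RWPE-ERG-mAKT, BIRC3 with SOD2 had 0.208, TNFAIP3 with BIRC3 0.206 and TNFAIP3 with TNFAIP2 0.180, against 0.0293, 0.0653 and 0.0410 for these pairs in RWPE1. Among the 4 subunit genes the median was 0.0251 in RWPE-ERG-mAKT and 0.00105 in RWPE1, and among the 4 feedback and survival genes it was 0.179 in RWPE-ERG-mAKT and 0.0604 in RWPE1. The pairs of RELA in RWPE-ERG-mAKT had at most 0.0515.

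**Figure D4:**
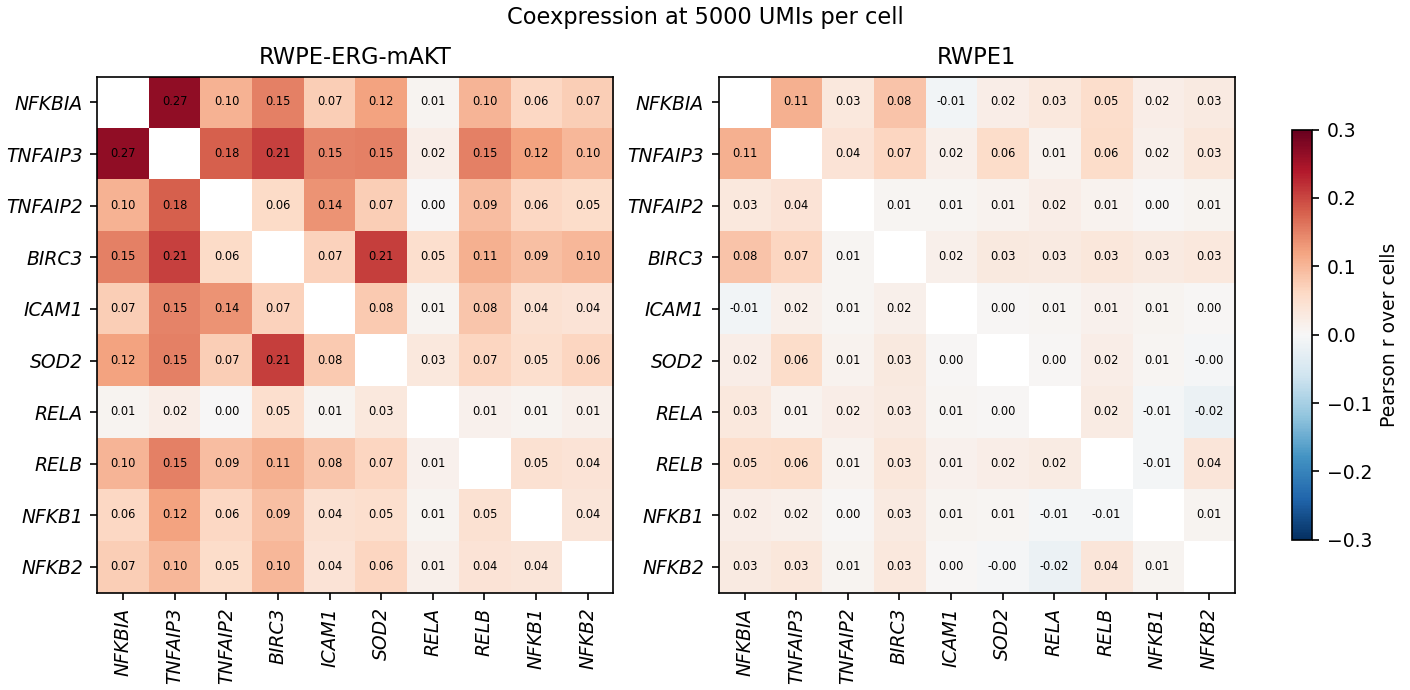
Pearson correlation across cells for each pair of the 10 genes after thinning to 5000 UMIs, in RWPE-ERG-mAKT and RWPE1. NFKBIA with TNFAIP3, BIRC3 with SOD2 and TNFAIP3 with BIRC3 are the darkest pairs in RWPE-ERG-mAKT, up to 0.266, the RELA row is near 0, and RWPE1 has 1 pair over 0.1.

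Sorting cells by their BIRC3 count showed the same relation as levels. RWPE-ERG-mAKT had 8065, 3334, 1378 and 1357 cells with 0, 1, 2 and at least 3 thinned BIRC3 UMIs. The mean of NFKBIA in these was 0.470, 0.573, 0.747 and 1.12 UMIs per cell, and that of SOD2 was 1.69, 2.16, 2.56 and 4.24. TNFAIP3 had the steepest course, at 0.0893, 0.143, 0.283 and 0.609. The subunits climbed as well, with RELB at 0.0584 in cells with 0 and 0.169 in cells with at least 3, NFKB2 at 0.0552 and 0.169, NFKB1 at 0.244 and 0.440, and RELA at 0.137 and 0.205. ICAM1 was at 0.0296 and 0.0847 and TNFAIP2 at 0.0283 and 0.0936 in the same cells. NFKB1 and ICAM1, with near equal totals in both libraries, thus varied with BIRC3 inside RWPE-ERG-mAKT. RWPE1 had 9391, 501, 55 and 20 such cells, and NFKBIA was at 0.167, 0.281, 0.636 and 0.6 in them. TNFAIP3 was at 0.00841, 0.0319, 0.109 and 0.1 in the same RWPE1 cells, where the last 2 values rest on few UMIs. SOD2 was at 0.288, 0.403, 0.218 and 1.05 in them, with no steady order. NFKB1 was at 0.276, 0.321, 0.473 and 0.45 in the RWPE1 cells and NFKB2 at 0.0634, 0.0758, 0.182 and 0.25. The last 2 values of each rest on 55 and 20 cells, and the last NFKB1 interval, 0.206 to 0.854, holds 0.276. RELA was at 0.0781, 0.118, 0.109 and 0.1 in RWPE1 and TNFAIP2 at 0.0526, 0.0579, 0.145 and 0.05, with no steady order. Higher means beside BIRC3 were thus seen in both libraries, but in RWPE1 not for every gene.

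**Figure D5:**
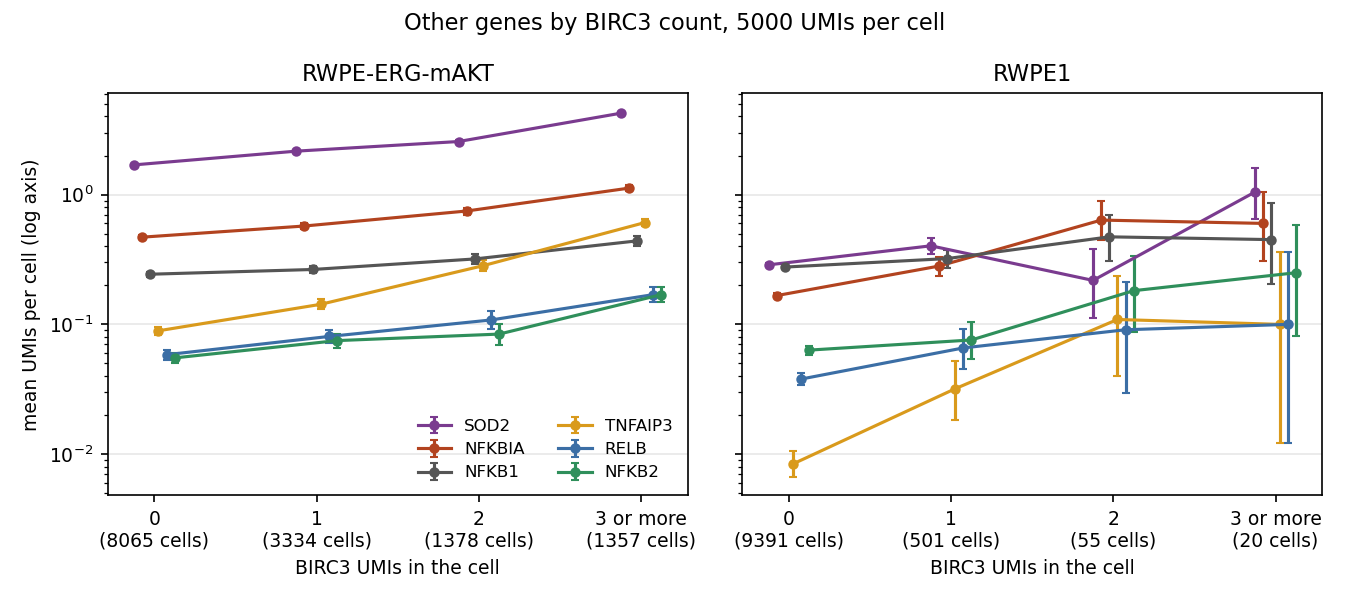
Mean UMIs per cell (log axis) of 6 genes by the number of BIRC3 UMIs in the cell, at 5000 UMIs per cell, in RWPE-ERG-mAKT and RWPE1, with Poisson 95% intervals. In RWPE-ERG-mAKT TNFAIP3 runs from 0.0893 with 0 BIRC3 UMIs to 0.609 with at least 3, and the intervals in RWPE1 are wide from 2 BIRC3 UMIs on.

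The 10 genes were next split by ERG within RWPE-ERG-mAKT. At least 1 thinned ERG UMI was found in 1279 cells and none in 12855. BIRC3 averaged 0.940 UMIs in cells with ERG and 0.863 in cells without, a log2 ratio of 0.12 (0.04 to 0.21). The variance over the mean of BIRC3 was 2.93 in this library, so this Poisson interval is too narrow for the spread between cells. BIRC3 is therefore not set apart from the other 9 genes, whose intervals reached 0. Cells with ERG had 0.604 UMIs of NFKBIA, 0.167 of TNFAIP3 and 2.07 of SOD2, and cells without had 0.582 of NFKBIA, 0.171 of TNFAIP3 and 2.14 of SOD2. Most cells of this line carried no ERG UMI at this depth, so a cell without one is not a cell without ERG.

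Mitotic transcripts divided the set. In RWPE-ERG-mAKT, 7113 cells had at least 3 thinned UMIs of 6 mitosis genes and 2613 had none. SOD2 averaged 1.57 UMIs in the cells with mitosis UMIs and 3.01 in those with none (log2 -0.95, -0.99 to -0.90). ICAM1 and TNFAIP2 were lower in the marked cells too, at log2 -0.78 (-1.11 to -0.45) and -0.61 (-0.93 to -0.29). NFKB1 was slightly higher in the marked cells, at 0.15 (0.03 to 0.28), and BIRC3, NFKBIA, RELA, RELB and NFKB2 had intervals that reached 0. TNFAIP3 was at 0.21 (0.05 to 0.38). Its variance over the mean was 3.23 in this library, so that Poisson interval is too narrow for the spread between cells and no difference is read from it. The variance over the mean was 6.10 for SOD2 and 2.43 for TNFAIP2 in this library. Their Poisson intervals are too narrow as well, and their ratios are given as point values only. In RWPE1, SOD2 averaged 0.280 UMIs in 5212 cells with at least 3 mitosis UMIs and 0.308 in 1914 with none (log2 -0.14, -0.28 to 0.00). NFKB1 was lower in the marked RWPE1 cells, at -0.18 (-0.32 to -0.04), the opposite sign to RWPE-ERG-mAKT, and the other 8 genes had intervals that reached 0.

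No gene outside the set followed a member closely in both libraries. Likeness was the lower of the Pearson correlations in RWPE-ERG-mAKT and RWPE1, over 8021 genes found in at least 5% of the thinned cells of both. The likest gene was FTH1 (ferritin heavy chain) for BIRC3 at 0.0846, IL1A for TNFAIP3 at 0.0659, and JUNB for NFKBIA at 0.0556. It was MT1X for SOD2 at 0.0492, KRT19 for TNFAIP2 at 0.0447 and for ICAM1 at 0.05, MALAT1 for NFKB1 at 0.0598, GADD45A for RELB at 0.0597 and for NFKB2 at 0.0284, and EIF1 for RELA at 0.0333. Values this low in sparse counts single out no gene, so the next 4 of each are not listed.

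Beyond the 10, 123 further genes of the pathway were listed in 8 groups, and 98 had at least 1 CPM on average. Of these, 34 (34.7%) were over 1.5-fold higher in RWPE-ERG-mAKT and 19 (19.4%) over 1.5-fold lower, beside 19.3% and 29.3% of all genes. Their median log2 ratio was 0.17. The count of each list below is to be read beside the same shares of all genes, 19.3% higher and 29.3% lower. The lists were drawn up with earlier results of these data known and their counts, which include the members where a list holds them, are descriptions. The 1 CPM minimum is an average, so some genes passed it only through the library where they were high. CCL20, CXCL8, CXCL10, IL6, LTB and CFB passed only through RWPE-ERG-mAKT, and CD40 and TNFSF15 only through RWPE1. Both counts are thus partly set by the filter. A check added after the data were seen took 22 genes beyond the 10. They were past 1.5-fold and named below by the size rule given under processing. In the cells with 200 to 2500 genes, 3 of the 22 were not past it in the same direction. These were CYLD at -0.76, TRAF3 at -0.36 and IL32 at 0.36. In the cells with 7.5% or more mitochondrial UMIs, 6 of the 22 were not. These were BCL3 at 0.58, TNIP2 at 0.56, CYLD at 0.46, TAB2 at -0.39, TRAF3 at -0.27 and IL1B at -0.27. Genes named below outside that rule were not counted. Among them, LTB and CXCL3 were not past 1.5-fold in the cells with 200 to 2500 genes, at -0.49 and -0.46. CXCL8, CXCL10 and IL6 had 0 RWPE1 UMIs in those cells, so they had no ratio there.

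Of 11 subunit and IkB genes, 6 were higher and 1 lower, with a median of 0.80. BCL3, an IkB family protein that works in the nucleus, was at 10.4 CPM in RWPE-ERG-mAKT and 5.93 CPM in RWPE1 (log2 0.81). Of 12 measured feedback genes, 3 were higher and 1 lower. TNIP2, an A20 partner, was at 25.3 CPM in RWPE-ERG-mAKT and 11.1 CPM in RWPE1 (log2 1.19), and the deubiquitinase CYLD at 18.8 CPM in RWPE-ERG-mAKT and 9.30 CPM in RWPE1 (log2 1.02). The ubiquitin ligase ITCH was lower, at 79.4 CPM in RWPE-ERG-mAKT and 219 CPM in RWPE1 (log2 -1.46).

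The signalling genes upstream were mixed. Of 27 kinases and adaptors, 5 were higher and 7 lower, beside 19.3% and 29.3% of all genes. With median-of-ratios scaling the counts were 7 and 6, beside 21.6% and 26.8% of all genes. These counts do not set the list apart from all genes. MAP3K14 encodes NIK, the kinase that starts the non-canonical arm, and was at 14.9 CPM in RWPE-ERG-mAKT and 70.7 CPM in RWPE1 (log2 -2.24). TRAF3, which marks NIK for degradation, was at 26.1 CPM in RWPE-ERG-mAKT and 47.7 CPM in RWPE1 (log2 -0.87), and TAB2, an adaptor of the kinase TAK1, at 35.5 CPM in RWPE-ERG-mAKT and 68.2 CPM in RWPE1 (log2 -0.94). TRADD, the adaptor of the TNF receptor, was higher, at 20.1 CPM in RWPE-ERG-mAKT and 9.31 CPM in RWPE1 (log2 1.11). The gene of the non-canonical kinase was thus lower in the library where RELB was higher.

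Of 13 measured receptors, 5 were higher and 3 lower. CD40, which signals to the non-canonical arm, was nearly lost from RWPE-ERG-mAKT, with 48 UMIs against 3612 in RWPE1 (0.213 CPM in RWPE-ERG-mAKT, 18.7 CPM in RWPE1, log2 -6.46). TNFRSF21, a death receptor, was at 13.5 CPM in RWPE-ERG-mAKT and 62.3 CPM in RWPE1 (log2 -2.21), and IL1RAP, the shared subunit of the IL-1 receptors, at 16.5 CPM in RWPE-ERG-mAKT and 50.7 CPM in RWPE1 (log2 -1.62). TNFRSF10A, a receptor of TRAIL, was higher, at 23.3 CPM in RWPE-ERG-mAKT and 10.9 CPM in RWPE1 (log2 1.10). TLR4 was under the 1 CPM minimum, at 0.253 CPM in RWPE-ERG-mAKT and 0.0519 CPM in RWPE1.

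Of 7 measured ligands, 1 was higher and 3 lower. IL1B was at 9.55 CPM in RWPE-ERG-mAKT and 18.7 CPM in RWPE1 (log2 -0.97), TNFSF10, which encodes TRAIL, at 4.55 CPM in RWPE-ERG-mAKT and 10.3 CPM in RWPE1 (log2 -1.18), IL1A at 24.0 CPM in RWPE-ERG-mAKT and 34.3 CPM in RWPE1 (log2 -0.52), and IL18 at 224 CPM in RWPE-ERG-mAKT and 258 CPM in RWPE1 (log2 -0.21). TNF itself was under the 1 CPM minimum, with 61 UMIs in RWPE-ERG-mAKT (0.271 CPM) and 11 in RWPE1 (0.0571 CPM). The ligand that was higher was LTB, a partner of lymphotoxin alpha, at 3.60 CPM in RWPE-ERG-mAKT and 0.456 CPM in RWPE1 (log2 2.98), named after its value was seen. LTB passed the 1 CPM average only through RWPE-ERG-mAKT. The ligands thus went both ways. In the cells with 200 to 2500 genes IL18 was at 0.40 (0.16 to 0.64). LTB was at -0.49 there (-1.62 to 0.88, from 60 UMIs in RWPE-ERG-mAKT and 7 in RWPE1), so its sign in them is not settled.

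Of 16 measured survival and death genes, 5 were higher and 1 lower. MCL1, which blocks cell death at the mitochondrion, was at 131 CPM in RWPE-ERG-mAKT and 56.9 CPM in RWPE1 (log2 1.20), and BCL2, a relative of it, at 10.1 CPM in RWPE-ERG-mAKT and 5.40 CPM in RWPE1 (log2 0.91). BCL2L1, which encodes BCL-XL of the same family, was lower, at 61.3 CPM in RWPE-ERG-mAKT and 154 CPM in RWPE1 (log2 -1.33). Of 15 measured adhesion and other target genes, 8 were higher and 3 lower. Among the 8, the complement gene CFB passed the 1 CPM minimum only through RWPE-ERG-mAKT. The acute-phase gene SAA1 was at 1436 CPM in RWPE-ERG-mAKT and 136 CPM in RWPE1 (log2 3.40), the complement gene C3 at 32.7 CPM in RWPE-ERG-mAKT and 2.14 CPM in RWPE1 (log2 3.94), and the transcription factor KLF6 at 248 CPM in RWPE-ERG-mAKT and 69.0 CPM in RWPE1 (log2 1.85). Of 16 chemokines and cytokines on the last list, 7 were measured and all 7 were higher, with a median log2 ratio of 3.76. Among them were the chemokine CCL20 at 19.7 CPM in RWPE-ERG-mAKT and 0.809 CPM in RWPE1 (log2 4.61) and IL32 at 16.6 CPM in RWPE-ERG-mAKT and 1.58 CPM in RWPE1 (log2 3.39). The 1 CPM minimum is an average over both libraries. CCL20, CXCL8, CXCL10 and IL6 passed it only through RWPE-ERG-mAKT, so this count is partly set by the filter. Among those under it, some on few UMIs, CXCL1 (log2 2.87), CSF2 (1.68) and CSF3 (3.62) were higher. CCL5 (-0.74) and CCL2 (-0.88, from 21 UMIs in RWPE-ERG-mAKT and 33 in RWPE1) were lower. CX3CL1 was at -1.07 (-3.00 to 0.66, from 5 and 9 UMIs) and LIF at 0.21 (-0.14 to 0.57), so their signs are not settled. CXCL5 had 0 UMIs in RWPE-ERG-mAKT and 5 in RWPE1. In the cells with 200 to 2500 genes IL32 was at 0.36 (-0.52 to 1.39) and CXCL3, another of the 7 and named after its value was seen, at -0.46 (-1.52 to 0.81, from 70 UMIs in RWPE-ERG-mAKT and 8 in RWPE1), instead of 2.79.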

How the data were processed

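Single-cell RNA was measured in 1 library of RWPE-ERG-mAKT and 1 of RWPE1. The authors made the deposited raw UMI counts with Cell Ranger 7.1.0 on hg38, without normalization. Whether counting used strand is not given in the sources used here, and antisense genes overlap TNFAIP3, ICAM1, SOD2 and RELA in GENCODE 29, which held 34616 of 36601 gene identifiers (94.6%).

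UMIs of kept cells were summed per gene and scaled to CPM, with exact Poisson intervals for levels and conditional binomial intervals for ratios. A change meant over 1.5-fold, among genes with at least 1 CPM on average. Doublets were not removed. Cells were thinned to 5000 UMIs for shares and for correlations of log(1 + 2 x UMIs). Alternatives varied the cells, scaling, thinning and fold. Named were the 10 members, up to 4 genes per list with the largest ratio among those with at least 10 CPM in a library, and the likest gene of each member. Members and lists were chosen with earlier results of these data known. The scripts were tested on simulated data. Software was matplotlib 3.10.9, pandas 2.3.3, scipy 1.17.1 and numpy 2.4.6 on Python 3.11.15.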

Additional observations from a re-analysis of the deposited data

How the results depend on the processing

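With 1 library per condition, neither variation between cultures nor between preparations was measured. No paired analysis was possible because each condition had 1 library, which leaves no pairs to compare, and the labels give no replicate number. In cells with 200 to 2500 genes the median log2 ratio of the 10 genes was 1.22 instead of 1.03 and 1 gene, NFKB2, was over 1.5-fold lower. The count over 1.5-fold higher was 6 in every choice of cells and scaling, but in those cells and in cells with 7.5% or more mitochondrial UMIs ICAM1 was in it and RELA was not. The intervals of ICAM1 and RELA reached 0 in both of these. The share of all genes over 1.5-fold higher and lower was 18.1% and 24.2% with a minimum of 10 CPM, 21.3% and 37% with at least 1 UMI in each library, and 21.6% and 26.8% with median-of-ratios scaling, which raised every ratio alike. The median correlation in RWPE-ERG-mAKT, 0.0734, was 0.0497 with thinning to 2500 UMIs, 0.0923 with 10000 UMIs, 0.0566 by Spearman and 0.131 without thinning. In RWPE1 it was 0.00593 with 2500 UMIs and 0.0392 without thinning, instead of 0.0161. It was higher in RWPE-ERG-mAKT in all of these. The number of genes with a higher share in RWPE-ERG-mAKT at equal depth, 7, was 6 to 8 with other depths, draws and cells. Detection of TNFAIP3 in RWPE1 is limited by depth, with 361 UMIs over 9967 cells.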

Other observations

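Within RWPE-ERG-mAKT alone, several genes outside the set varied with its members more than any did in both libraries. They were chosen after their values were seen, among genes found in at least 5% of thinned cells of both libraries, and the correlations across 14134 cells are descriptions. IRF1, an interferon-regulated transcription factor, was at 0.308 with TNFAIP3 and 0.203 with NFKBIA in RWPE-ERG-mAKT, against 0.0356 and 0.0546 in RWPE1. IRF1, like SAA1 below, was itself on the pathway list of adhesion and other target genes. EFNA1, a ligand of Eph receptors, was at 0.318 with TNFAIP3, against 0.0274 in RWPE1, and INHBA, an activin subunit, at 0.244 against 0.0360. IRF1 was among the 5 likest genes of 8 of the 10 members in RWPE-ERG-mAKT, and of NFKBIA in RWPE1.

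SAA1 was the likest gene of SOD2 in RWPE-ERG-mAKT, at 0.373, and of BIRC3, at 0.2, and it was among the 5 likest of NFKBIA, at 0.102. For SOD2 it was followed by SQSTM1, an autophagy receptor, at 0.254 and NNMT, a nicotinamide methyltransferase, at 0.251. In RWPE1, SOD2 was at 0.0147 with SAA1, 0.0116 with SQSTM1 and 0.0301 with NNMT. NNMT was at 303 CPM in RWPE-ERG-mAKT and 36.2 CPM in RWPE1.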
